A study of Mus musculus with 8 samples.

Results

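The genes described here build, bind and regulate the actin cytoskeleton or are known targets of serum response factor (SRF). They are 43 genes chosen by name, and the probes counted as theirs are those whose platform gene symbol is one of the names. Of the 43 genes, 39 had at least 1 probe, giving 62 of the 24613 probes of the array, and 4 genes (Actg1, Actn1, Myl9 and Pdlim1) had no probe under these names, so that their expression is not analysed here. RNA came from 4 cultures of astrocytes and 4 cultures of NS5 cells, each on its own Illumina mouse bead array. The astrocytes are NS5 cells kept for 3 days in the same medium with the growth factors left out and 5% fetal calf serum added, on gelatin-coated plastic or glass, and NS5 cells are neural stem cells of a mouse line, here grown with growth factors. All 8 cultures therefore come from the same line. Serum addition, growth factor withdrawal and the change of cell type coincide in this design and cannot be told apart. The comparison asks which of these transcripts differ between the derived astrocytes and the stem cells.

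Actin monomers assemble into filaments that tropomyosins coat, myosin II pulls on, alpha-actinins and filamins crosslink, and focal adhesion proteins anchor to integrins. Monomer-binding proteins such as profilin, cofilin and the thymosins control how quickly filaments grow and turn over. SRF is a transcription factor that binds a DNA element called the CArG box. Its coactivators of the MRTF family are held in the cytoplasm by monomeric actin, so that many genes of the cytoskeleton are regulated by the state of the cytoskeleton itself, and a second set of partners, the ternary complex factors, links SRF to growth factor signalling and immediate-early genes. In astrocytes, filaments of actin support the cell processes, and ezrin is known as a protein of the fine perisynaptic ones.

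Of the 39 genes, 28 passed a filter that kept the brighter part of all probes, and these 28 are described by their brightest probe. The changes were uneven between roles. In astrocytes the LIM-domain genes Fhl1 and Pdlim7, the membrane linker Ezr and the matricellular gene Ccn1 were much higher, Myl6, Myh10, Flna and Vcl were moderately higher, and the filament turnover genes Cfl1 and Pfn1 were lower. The contractile and adhesion genes did not move as one, since Zyx was called lower and Myh9, Pxn and Lasp1 were not called. The gene for SRF itself did not pass the test. By limma, with Benjamini-Hochberg adjustment over all probes tested and a call at an adjusted p under 0.05, 17 of the 28 were called higher, against 29.2% of 10375 genes tested, and 6 were called lower, against 29.9%. The 17 include Actb, whose direction depends on the scaling. Acta2 and Ccn1 among the 17, and Tmsb10 among the 6, passed the filter while above background in 1 group alone. A change of at least 2-fold was called for 6 higher genes (background 9.86%), Acta2 and Ccn1 among them, and 2 lower genes (background 8.68%). Over probes rather than genes, 43 of the 62 passed, of which 19 were called higher (background 28.2%) and 11 lower (background 30.6%). The signals of the 4 astrocyte arrays and the 4 NS5 arrays did not overlap for 19 of the 28 genes, against 54.9% of all genes tested. The median log2 fold change of the 28 was 0.40, against -0.02 over all genes tested. These 28 are not all members, since a gene bright in 1 group alone passes more readily. Each fold change is the astrocyte mean minus the NS5 mean of log2(signal + 99.01), a scale on which dim genes appear to change less.

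**Figure D1:**
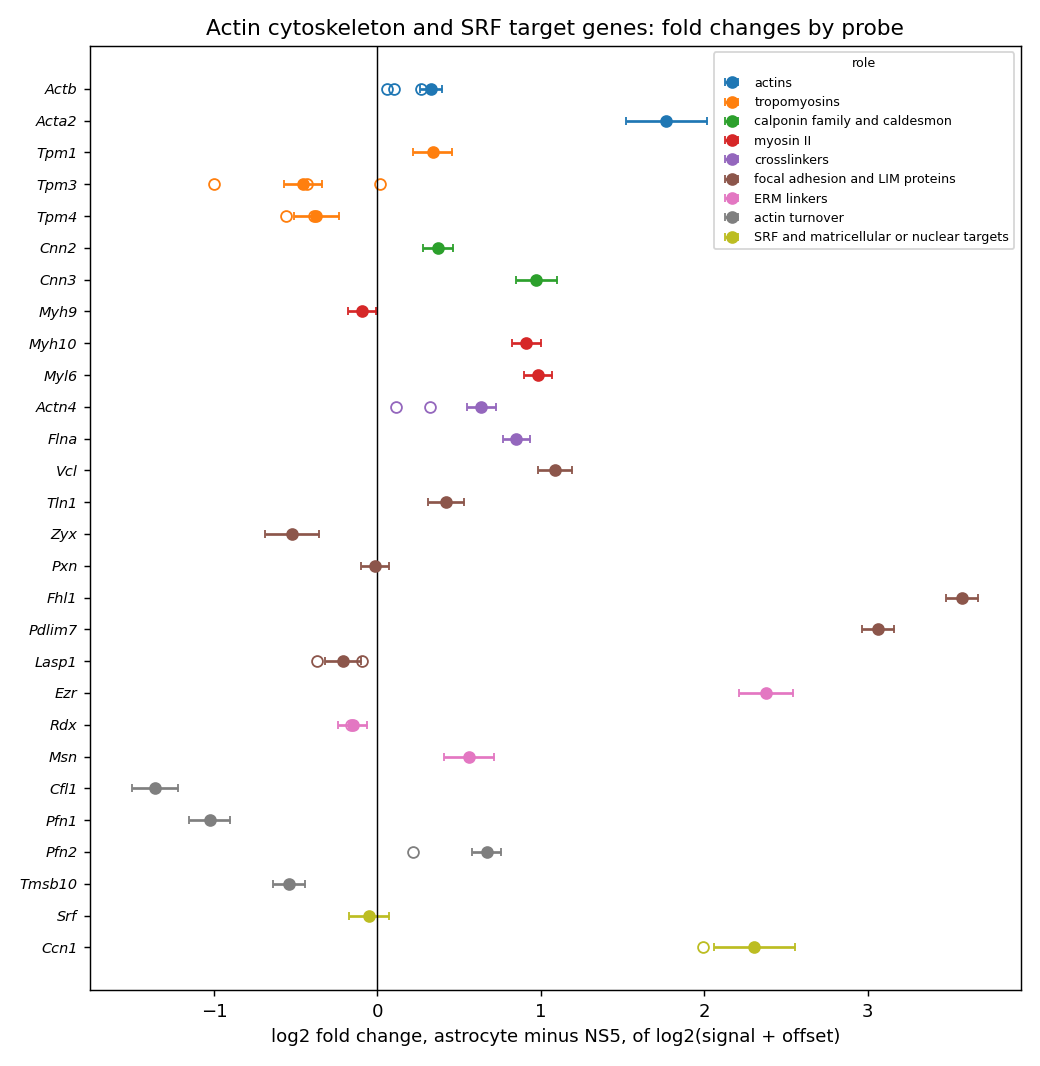
Log2 fold change (x axis, astrocyte minus NS5) of each member gene that passed the filter (rows, coloured by role). Filled points are the brightest probe with its standard error from the limma fit and open points are further probes of the same gene. Fhl1, Pdlim7, Ezr and Ccn1 lie farthest to the right and Cfl1 and Pfn1 farthest to the left among filled points, while Tpm3 has probes from -1.002 to 0.01.

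The other 11 genes did not pass. Tagln, Tagln2, Cnn1, Tmsb4x, Gsn, Ccn2 and Ankrd1 were not above an estimated background limit of 35.4 to 39.8 units on any of the 8 arrays. Among them are Tagln and Cnn1, the smooth muscle proteins transgelin and calponin 1, and Ankrd1 and Ccn2, which are frequently used as readouts of SRF or YAP activity. Whether such a probe failed or its transcript was scarce was not tested. Actg2, Tpm2 and Fhl2 exceeded the limit on 1 array each. Cald1, caldesmon, exceeded it on 3 of the 4 astrocyte arrays and on 0 of the 4 NS5 arrays, with signals of 44.9, 55.8, 49.2 and 25.5 in astrocytes against -15.7, -25.1, 10.9 and 23.0 in NS5 cells. Signals here are normalized scanner units with the offset removed, so that values near or below 0 stand for background.

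The windows around gene starts are shown because they carry the binding element that the name of this gene group refers to. In RefSeq windows of 300 bases (GRCm38.p6, 250 bases before to 50 after the gene start), 38 members had a sequence, and a CArG box was found in at least 1 window of 8 of them (21.1%), against 1.81% of 27025 genes. Known SRF targets are among the members by choice, so that a share above that of all genes follows from how the list was made. The box is palindromic, so that a search covers both strands. The 8 were Fhl2, Myl9, Cnn2, Myl6, Actg1, Vcl, Srf and Fhl1, of which Myl9 and Actg1 have a promoter sequence but no probe, and the 5 of them that passed the expression filter are printed, 5′ to 3′, with the box in capitals.
Srf, chr17:46556113-46556412, - strand: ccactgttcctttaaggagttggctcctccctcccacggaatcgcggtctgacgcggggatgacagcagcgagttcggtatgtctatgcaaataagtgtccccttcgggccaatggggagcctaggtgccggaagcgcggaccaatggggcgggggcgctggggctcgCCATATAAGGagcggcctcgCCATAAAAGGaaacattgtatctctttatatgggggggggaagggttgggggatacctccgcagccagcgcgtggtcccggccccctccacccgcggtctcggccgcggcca
Vcl, chr14:20929148-20929447, + strand: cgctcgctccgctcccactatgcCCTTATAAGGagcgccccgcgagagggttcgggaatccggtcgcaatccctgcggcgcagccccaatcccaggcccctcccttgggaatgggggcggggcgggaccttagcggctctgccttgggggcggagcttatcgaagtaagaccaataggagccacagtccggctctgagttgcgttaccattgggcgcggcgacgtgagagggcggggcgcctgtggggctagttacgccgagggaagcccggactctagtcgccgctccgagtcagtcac
Fhl1, chrX:56779433-56779732, + strand: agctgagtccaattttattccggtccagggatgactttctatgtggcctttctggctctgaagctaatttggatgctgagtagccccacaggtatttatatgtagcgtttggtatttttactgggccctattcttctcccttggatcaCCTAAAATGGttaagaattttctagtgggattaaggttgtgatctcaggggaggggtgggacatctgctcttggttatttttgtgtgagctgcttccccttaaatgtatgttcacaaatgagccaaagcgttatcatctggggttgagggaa
Myl6, chr10:128492960-128493259, - strand: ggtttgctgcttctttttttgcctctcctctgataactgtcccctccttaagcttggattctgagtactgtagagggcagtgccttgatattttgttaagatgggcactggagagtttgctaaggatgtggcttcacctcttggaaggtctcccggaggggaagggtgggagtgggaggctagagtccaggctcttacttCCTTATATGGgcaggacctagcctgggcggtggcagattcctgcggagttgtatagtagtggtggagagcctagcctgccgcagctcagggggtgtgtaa
Cnn2, chr10:79988350-79988649, + strand: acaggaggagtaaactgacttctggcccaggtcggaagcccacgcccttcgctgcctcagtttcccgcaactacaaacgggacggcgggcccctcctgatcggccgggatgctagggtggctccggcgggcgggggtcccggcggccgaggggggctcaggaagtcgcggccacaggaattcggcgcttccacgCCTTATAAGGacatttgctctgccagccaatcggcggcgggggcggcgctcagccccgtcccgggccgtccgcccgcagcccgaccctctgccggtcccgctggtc
Srf held 2 boxes, beginning 82 and 62 bases before the gene start. The box of Vcl began 227 bases before the start, that of Fhl1 102, that of Cnn2 56 and that of Myl6 50. Fhl1 and Myl6 have 2 windows each and held the box in 1 of them. The letters GGAATG, a core bound by TEAD factors, stood on either strand in the windows of 11 of the 38 members (28.9%), against 16.6% of all genes. Genes known to respond to YAP, such as Ccn1, Ccn2 and Ankrd1, are also members by choice. The list was thus not neutral for this core either, and the difference in shares was not tested. Vcl was the 1 printed gene that held the core, which did not overlap its box. Among the 5 printed genes, Fhl1, Vcl, Myl6 and Cnn2 were called higher in astrocytes and Srf was not called. Of all 28 members 17 were called higher, and of all genes tested 29.2%. Whether a box goes with a higher call was not tested. A match is a description of letters in a window, and binding was not measured.

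The actins were represented by 3 genes. Acta2, smooth muscle actin and a classical SRF target, had signals of 392, 252, 163 and 95.2 in astrocytes against 2.29, -37.9, 5.61 and 2.29 in NS5 cells (probe ILMN_2693895). All 4 astrocyte arrays were above background and none of the NS5 arrays was, with a spread of several-fold among the astrocyte cultures. The gene was at least 2.22-fold higher in astrocytes. The adjusted p of 3.89e-05 (limma) belongs to the fitted log2 fold change of 1.77, which rests on NS5 values below background, and not to the bound. Its other 2 probes did not exceed background on any array. Actb, cytoplasmic beta-actin, had signals of 39017, 36383, 35223 and 36815 in astrocytes against 29293, 30348, 29293 and 28396 in NS5 cells by its brightest probe (ILMN_1377923). The groups did not overlap, and the log2 fold change came to 0.33 ± 0.07 (SE, adjusted p = 1.14e-03, limma), but its sign turned with median centring of the arrays, to -0.10 (adjusted p = 0.402), so that no direction is given for Actb. The other 3 Actb probes had values of 0.06, 0.10 and 0.26 and none was called. Cross-hybridisation between actin transcripts, which are much alike, was not tested.

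By their brightest probes, Tpm3 and Tpm4 were called lower and Tpm1 higher, and the calls of Tpm1 and Tpm4 depended on single arrays and on the processing. Tpm3 had signals of 4271, 3107, 3144 and 2807 in astrocytes against 4946, 4611, 4247 and 4406 in NS5 cells (probe ILMN_2461527). Astrocyte culture 1 lay just inside the NS5 range and the other three lay below it, and the log2 fold change was -0.45 ± 0.11 (SE, adjusted p = 3.95e-03, limma). Tropomyosin genes give many splice forms, and the other passing probes of Tpm3 had values of -1.002, -0.43 and 0.01. By the probe with -1.002 (ILMN_2444316), Tpm3 had signals of 1457, 1091, 1093 and 766 in astrocytes against 2012, 2259, 2477 and 2292 in NS5 cells, with no overlap. Which splice forms the probes cover was not tested. Tpm4 was lower by all 3 of its probes, with log2 fold changes of -0.37, -0.56 and -0.39, and its brightest probe averaged 4510 ± 988 in astrocytes and 5820 ± 740 in NS5 cells (SD, n = 4 each). Tpm1 had signals of 1183, 961, 712 and 962 in astrocytes against 780, 754, 663 and 704 in NS5 cells, or 0.34 ± 0.12 in log2 fold change (SE, adjusted p = 0.0272, limma). The groups overlapped by 1 astrocyte culture. The call of Tpm1 was lost without astrocyte array 1 (0.24, adjusted p = 0.0694), 2 (0.33, 0.0585) or 4 (0.33, 0.0509) and without NS5 array 3 (0.30, 0.0755) or 4 (0.33, 0.0616). That of the brightest Tpm4 probe (adjusted p = 0.0325, limma) was lost without astrocyte array 2 (-0.36, 0.0745), 3 (-0.29, 0.0989) or 4 (-0.35, 0.0695) and without NS5 array 2 (-0.33, 0.0905), 3 (-0.34, 0.0857) or 4 (-0.36, 0.0704).

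Among calponins, Cnn3, the acidic form found in brain, had signals of 26864, 17152, 20787 and 17270 in astrocytes against 9657, 11028, 10048 and 10227 in NS5 cells. Every astrocyte culture exceeded every NS5 culture, by 1.96-fold on average (log2 fold change 0.97 ± 0.13, SE, adjusted p = 2.06e-05, limma). Cnn2, the calponin of non-muscle cells, had signals of 244, 172, 170 and 183 in astrocytes against 119, 129, 140 and 112 in NS5 cells. It was also higher on each astrocyte array, with a log2 fold change of 0.37 ± 0.09 (adjusted p = 3.21e-03). A further Cnn2 probe was not above background on any array.

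Of the myosin II genes, Myl6, the essential light chain shared by smooth muscle and non-muscle myosin, had signals of 6702, 7803, 7465 and 6571 in astrocytes against 3867, 3409, 3262 and 3732 in NS5 cells. The groups lay far apart, by 0.98 ± 0.09 on the log2 scale (SE, adjusted p = 4.88e-07, limma). Myh10, the heavy chain of non-muscle myosin IIB, averaged 584 ± 72.0 in astrocytes and 263 ± 26.3 in NS5 cells (SD, n = 4 each), 0.91 ± 0.09 in log2 fold change (SE). Myh9, the heavy chain of myosin IIA, had signals of 6099, 4918, 4899 and 4971 in astrocytes against 5317, 5668, 5335 and 5920 in NS5 cells. Here astrocyte culture 1 was the highest array and the other three astrocyte cultures were the lowest, and the gene was not called (-0.09 ± 0.09, adjusted p = 0.395).

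Both crosslinkers with probes were higher in astrocytes. Flna, filamin A, had signals of 2866, 2467, 2737 and 2711 in astrocytes against 1536, 1313, 1367 and 1595 in NS5 cells. The arrays within each group were close together and the groups did not overlap, and differed by 0.85 ± 0.08 on the log2 scale (SE, adjusted p = 1.47e-06, limma). Actn4, an alpha-actinin of non-muscle cells, had signals of 922, 1038, 940 and 1151 in astrocytes against 613, 544, 638 and 666 in NS5 cells, again without overlap. Its log2 fold change was 0.64 ± 0.09 by this probe (adjusted p = 3.49e-05), 0.32 by another that was called and 0.11 by a dimmer one that was not.

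The focal adhesion and LIM proteins held both the highest values and genes near 0. Fhl1, a four-and-a-half LIM domain protein known from muscle, had signals of 12800, 12714, 10601 and 14257 in astrocytes against 993, 1021, 994 and 838 in NS5 cells. It was 11.9-fold higher in astrocytes, or 3.58 ± 0.10 on the log2 scale (SE, adjusted p = 1.09e-11, limma), the highest among the 28. Pdlim7, a PDZ and LIM protein also called enigma that binds actin filaments through tropomyosin, averaged 3591 ± 91.5 in astrocytes and 346 ± 59.0 in NS5 cells (SD, n = 4 each), 8.35-fold higher (adjusted p = 3.88e-11). Vcl, vinculin, which links integrin adhesions to filaments, averaged 4840 ± 628 in astrocytes and 2220 ± 228 in NS5 cells, 2.12-fold higher (adjusted p = 1.06e-06). Tln1, talin 1, the activator of integrins, had a log2 fold change of 0.42 ± 0.11 (adjusted p = 4.65e-03).

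Zyx, zyxin, a LIM protein of mature adhesions, went the other way. It had signals of 5351, 3344, 3631 and 2562 in astrocytes against 5097, 5087, 5307 and 5327 in NS5 cells, so that the astrocyte cultures were spread widely and culture 1 stood above all NS5 arrays. The log2 fold change was -0.52 ± 0.16 (SE, adjusted p = 0.0147, limma), and -0.71 without astrocyte array 1. Pxn, the adhesion scaffold paxillin, had signals of 64.3, 71.8, 65.2 and 86.5 in astrocytes against 71.6, 53.6, 85.4 and 85.1 in NS5 cells, overlapping throughout, and was not called (adjusted p = 0.905). Lasp1, a LIM and SH3 protein, had -0.21 ± 0.11 by its brightest probe (adjusted p = 0.120) and was called lower by 1 of its 2 other probes, at -0.37. The brightest probe was called without astrocyte array 4 (-0.31, adjusted p = 0.0122).

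**Figure D2:**
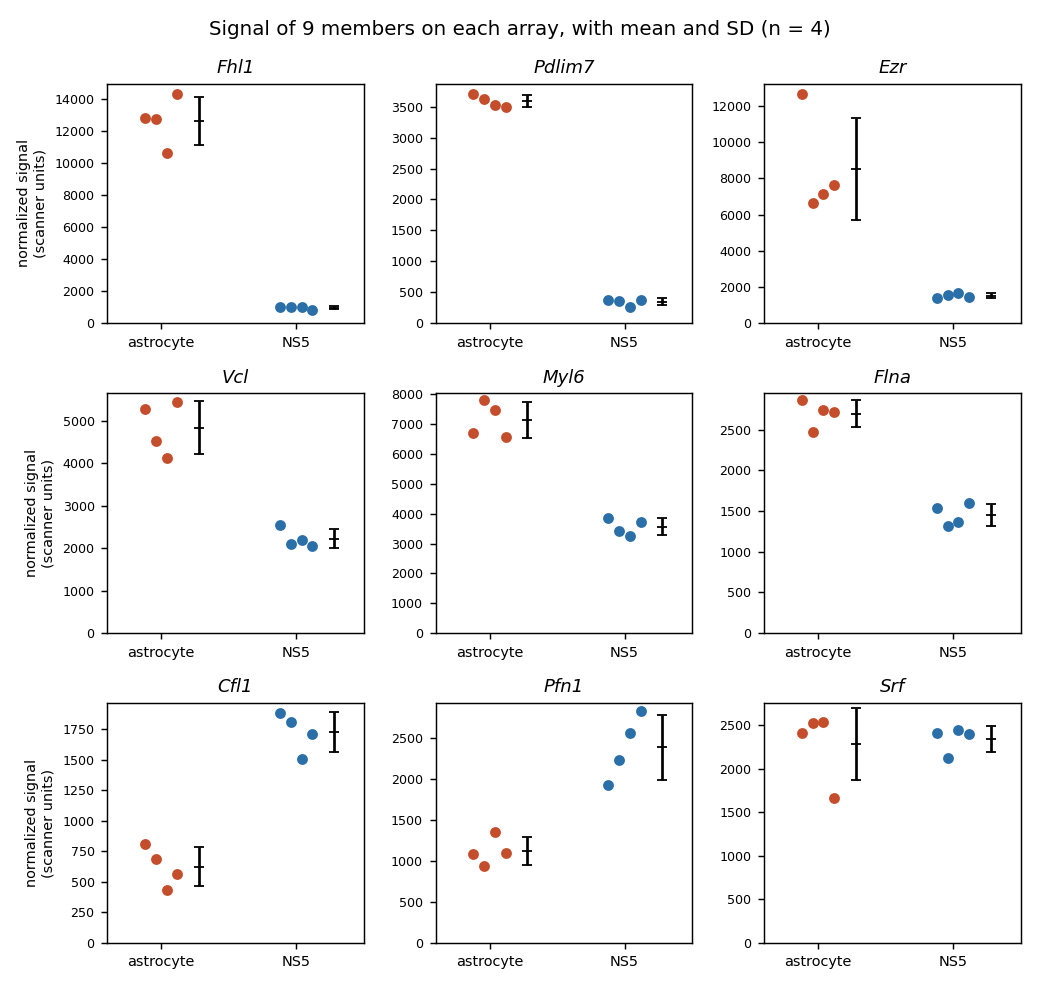
Normalized signal (y axis, scanner units from 0) of 9 members on each of the 4 astrocyte and 4 NS5 arrays, 1 point per array, with the mean and SD beside the points. The groups are apart for Fhl1, Pdlim7, Ezr, Vcl, Myl6 and Flna with astrocytes higher and for Cfl1 and Pfn1 with astrocytes lower, and they overlap for Srf.

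The 3 ERM proteins, which tether filaments to the plasma membrane, differed from each other. Ezr, ezrin, had signals of 12668, 6647, 7134 and 7630 in astrocytes against 1365, 1568, 1670 and 1442 in NS5 cells. All astrocyte cultures were several-fold above all NS5 cultures and culture 1 was far above the other three. The difference was 2.37 ± 0.17 on the log2 scale (SE, adjusted p = 5.73e-08, limma), and 2.18 without astrocyte array 1. Msn, moesin, was higher as well, at 0.56 ± 0.15 (adjusted p = 6.21e-03), with means of 435 ± 124 in astrocytes and 258 ± 49.8 in NS5 cells (SD, n = 4 each). Rdx, radixin, had signals of 655, 651, 767 and 626 in astrocytes against 708, 864, 764 and 708 in NS5 cells. These ranges overlapped, and neither Rdx probe was called (-0.15 and -0.16).

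The filament turnover genes contained the lowest values. Cfl1, cofilin 1, which severs and depolymerizes filaments, had signals of 809, 686, 435 and 567 in astrocytes against 1881, 1807, 1503 and 1714 in NS5 cells. The groups did not overlap, and the gene was 2.56-fold lower in astrocytes, or -1.36 ± 0.14 on the log2 scale (SE, adjusted p = 2.22e-06, limma). Pfn1, profilin 1, which supplies monomers to growing filaments, averaged 1121 ± 173 in astrocytes and 2391 ± 395 in NS5 cells (SD, n = 4 each), or on the log2 scale -1.03 ± 0.13 (adjusted p = 1.11e-05). Pfn2, the profilin of brain, was higher, averaging 7289 ± 617 in astrocytes and 4551 ± 398 in NS5 cells, at 0.67 ± 0.09 (adjusted p = 2.32e-05), while its dimmer probe had 0.22 (adjusted p = 0.0749). Tmsb10, thymosin beta 10, which sequesters monomers, was dim, with signals of 16.1, -9.66, 16.7 and 21.6 in astrocytes against 59.3, 72.6, 55.6 and 55.3 in NS5 cells. It was above background on the 4 NS5 arrays alone and at least 1.18-fold lower in astrocytes. The adjusted p of 3.27e-04 (limma) belongs to the fitted log2 fold change of -0.54, which rests on astrocyte values below background, and not to the bound.

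Srf had signals of 2411, 2525, 2543 and 1671 in astrocytes against 2411, 2124, 2445 and 2404 in NS5 cells. The groups overlapped and the gene was not called (-0.05 ± 0.12, SE, adjusted p = 0.750, limma). Ccn1, a secreted matricellular protein induced by serum through SRF and YAP, had signals of 631, 513, 691 and 189 in astrocytes against 16.3, 13.9, 28.9 and 2.96 in NS5 cells. All astrocyte arrays were above background and no NS5 array was, with astrocyte culture 4 well below the other three. Ccn1 was at least 4.10-fold higher in astrocytes by this probe and at least 2.26-fold by its other. The adjusted p of 3.15e-06 and 6.40e-05 (limma) belong to fitted log2 fold changes of 2.31 and 1.99. These rest on NS5 values below background, and the p are not those of the bounds.

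Whether related members changed unequally was tested on the log2 difference of a pair on each array, with an exact two-sided permutation test over the 8 arrays, whose smallest possible p is 0.0286, adjusted over the 10 pairs whose genes both passed the filter. The ratio of Pfn2 to Pfn1 was higher in astrocytes by 1.69 on the log2 scale, that of Ezr to Rdx by 2.53, that of Ezr to Msn by 1.81 and that of Myh10 to Myh9 by 1.01. Among tropomyosins, Tpm1 gained on Tpm3 by 0.79 and on Tpm4 by 0.71, while Tpm4 against Tpm3 differed by 0.08 (exact p = 0.657). The difference of Tpm1 against Tpm4 lost its call without any 1 of the 4 astrocyte arrays, at 0.67 to 0.75 (exact permutation test, adjusted p = 0.0635 each). The size stayed near 0.71, and the test has fewer regroupings when an array is left out. This loss therefore does not show that the difference rests on any 1 array. The ratio of Cnn2 to Cnn3 was lower by -0.60 and that of Rdx to Msn by -0.71. For the dim Cnn2 the size depended on the scale, and the difference was -0.37 both by the authors' value table and with median centring. No difference is given for Acta2 against Actb, since Acta2 was not above background on any NS5 array. In 8 of the other 9 pairs the astrocyte and NS5 values did not overlap, each at the smallest possible p (adjusted p = 0.0317). Such a ratio shows unequal change and does not show which gene stayed the same.

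**Figure D3:**
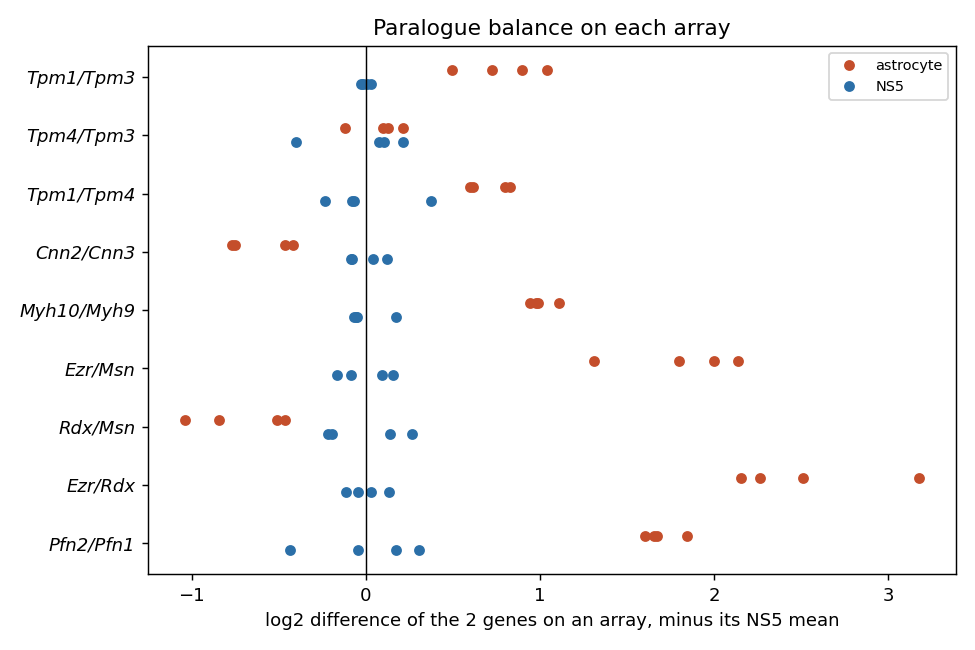
Log2 difference between the 2 genes of each pair on each array (x axis), set to 0 at the NS5 mean of the pair, with astrocyte points above NS5 points in each row. Astrocyte points lie to the right of the NS5 points for 6 pairs, to the left for Cnn2/Cnn3 and Rdx/Msn, and among them for Tpm4/Tpm3.

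The members did not vary evenly among the astrocyte cultures. Astrocyte array 1 was the highest of the 4 astrocyte arrays for 14 of the 28 genes, whereas it was the highest for 27.6% of all 12306 probes tested. Its median deviation from the astrocyte mean was 0.15 on the log2 scale, against -0.05, -0.06 and -0.05 for arrays 2, 3 and 4. In NS5 cells the corresponding medians ran from -0.00 to 0.03. Without astrocyte array 1 the median log2 fold change of the 28 was 0.33. In such bulk cultures, more cells of a kind and more RNA per cell cannot be told apart.

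**Figure D4:**
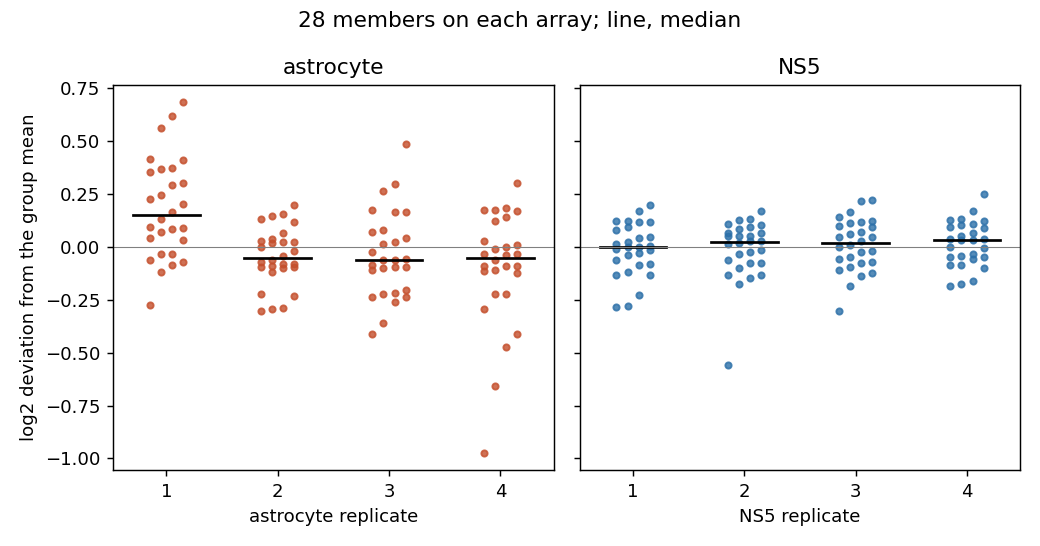
Log2 deviation of each of the 28 member genes from its group mean (y axis) on each astrocyte array (left panel) and each NS5 array (right panel), with the median as a line. The median is 0.15 on astrocyte array 1 and lies between -0.06 and 0.03 on the other 7 arrays.

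Other genes of actin and SRF regulation were counted from lists by function, and the shares called are set beside those over all genes tested. Of the MRTF coactivators and ternary complex factors, 1 of 7 on the array passed the filter, Myocd, which was not called, and Mrtfa was not above background on any array. Among 15 genes of branched filament nucleation, 4 were called higher (26.7%, background 29.2%) and 5 lower (33.3%, background 29.9%), shares close to those of all genes. Arpc1b, a subunit of the Arp2/3 complex, had -1.13 ± 0.10.

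Of 23 measured capping, severing and bundling genes, 11 were called higher (47.8%, background 29.2%) and 8 lower (34.8%, background 29.9%). Fscn1, fascin, which bundles filaments in filopodia, fell to 222 ± 76.1 in astrocytes, against 3389.7 ± 231 in NS5 cells (SD, n = 4 each), or -3.47 ± 0.15 on the log2 scale (SE, adjusted p = 6.54e-10, limma). Dbn1, drebrin, had 1.71 ± 0.18, its probe exceeding the limit on 3 NS5 arrays, and the bundling protein Pls3 had 1.55 ± 0.10. Eps8, a capping protein, had -1.32 ± 0.10, its probe exceeding the limit on 2 astrocyte arrays. Of 15 integrin adhesion partners, 7 were called higher (46.7%, background 29.2%) and 3 lower (20%, background 29.9%). Pdlim4, a relative of Pdlim7, was at least 4.27-fold higher, the integrin subunit Itgb5 had 2.06 ± 0.14, and Tns1, tensin, had 1.97 ± 0.08, its probe exceeding the limit on 1 NS5 array. The scaffold Bcar1 had 1.35 ± 0.11. Ptk2, focal adhesion kinase, the lowest of the list and named after its values were seen, averaged 3149 ± 441 in astrocytes and 7736 ± 856 in NS5 cells (SD, n = 4 each), a log2 difference of -1.27.

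In the YAP and TEAD list 5 of 9 measured genes were called higher (55.6%, background 29.2%) and 2 lower (22.2%, background 29.9%). The receptor kinase Axl averaged 5582 ± 146 in astrocytes and 294 ± 73.2 in NS5 cells (SD, n = 4 each), Amotl2 was at least 2.79-fold higher, the coactivator Wwtr1, also called TAZ, averaged 1853 ± 543 in astrocytes and 584 ± 134 in NS5 cells, and Tead2 was lower by -1.60 ± 0.09 (log2, SE). Of 8 immediate-early SRF targets measured, 4 were called higher (50%, background 29.2%) and the other 4 were not called. The latter were Egr1 (-0.82), Dusp1 (-0.60), Egr3 (-0.09) and Egr2 (0.24). Fos had signals of 3739, 5833, 14089 and 1045 in astrocytes against 76.9, 45.2, 800 and 296 in NS5 cells, a wide spread within each group but no overlap, and Junb, Ier3 and Mcl1 had 2.75 ± 0.22, 2.47 ± 0.24 and 1.15 ± 0.10. Within astrocytes, array 4 was the lowest for Fos, Junb, Ier3, Mcl1, Dusp1 and Egr3 of this list and array 1 for Egr1 and Egr2. Among the 28 members array 4 was the lowest for 10, Ccn1 and Srf included, and it was so for 25.8% of all probes tested. Without that array the log2 fold change of Fos was 4.50, against 3.83 with all arrays, Fos and Ccn1 were called, and Srf had 0.09 and was not called (adjusted p = 0.414).

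**Figure D5:**
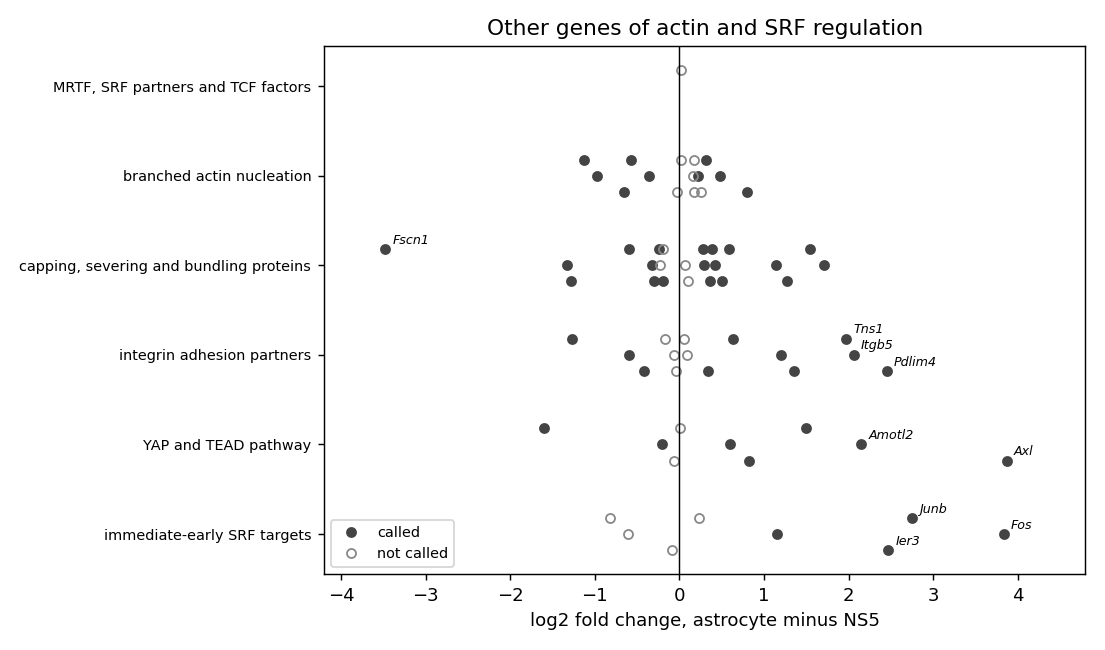
Log2 fold change (x axis, astrocyte minus NS5) of the measured genes of 6 lists of actin and SRF regulation (rows), filled where called by limma and open where not. The genes farthest from 0 are named. Fscn1 is the lowest and Axl and Fos are the highest.

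Cell identity was checked on markers. Of 8 measured astrocyte markers, 7 were called higher, and Gfap was at least 16.7-fold higher in astrocytes. Of 8 measured neural stem cell markers, 3 were called higher and 4 lower. Among 9 fibroblast markers on the array 7 stayed at or below the background limit throughout, and the summed signal of the list was 139 to 228 in astrocytes against 75.6 to 158 in NS5 cells. Pdgfra was called higher (0.41), and Dcn, at 0.21, was not. Of 8 smooth muscle and pericyte markers 5 passed, 2 were called higher and 1 lower. The higher were Notch3 at 1.37 and Mcam at 0.71, and the lower was Smtn at -2.34. Myh11 was not above the limit on any array and Des on 1 astrocyte array alone. The summed signal of that list was 1067 to 1348 in astrocytes and 1364 to 1883 in NS5 cells. Of that sum, Smtn alone averaged 114 in astrocytes and 974 in NS5 cells. Of 7 microglia and macrophage markers, 0 passed. Of 4 measured neuronal markers, 1 was called higher and 1 lower, and 1 endothelial and 1 muscle marker passed and neither was called. The part of other cell types in the member changes was not tested. The probes above background were 46.0% to 47.9% of an array, and the 4 arrays per group limit the precision.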

How the data were processed

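Per the labels' protocols, RNA was extracted with TRIzol, cleaned on RNeasy columns, amplified and biotin-labelled with a TotalPrep kit and hybridised to 1-colour bead arrays, and the 4 samples of each cell type are biological replicates of 1 line. The authors deposited linear probe intensities, which hold values below 0, so a background had been subtracted; the sources used here do not name the software or its settings. The authors also deposited a log2 value table, which equals those intensities with a floor of 10, log2 transformed and quantile normalized, within 4.99e-09. It served as an alternative.

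An offset of 99.01, chosen so that the lowest intensity became 16, was added before log2 transformation and quantile normalization. Probes with a mean above the median of all probes entered the test (12306), which used limma 3.58.1 (R 4.3.3) on all 8 arrays, group as the single term, without a replicate block. A gene is given by its brightest probe, with its other probes beside it. The background limit of an array is 1.645 times the root mean square of its negative intensities, and a gene below it on all arrays of a group has only a bound: the mean of the brighter group against, per array, the higher of the lowest value above the limit and the value of the dim probe. Of all probes, 20984 had 1 platform symbol, 687 were named through their accession and RefSeq (GRCm38.p6), and 2941 had no name. The members, lists and tests were chosen with earlier results of these data known. Per-array values are given for the genes with the largest and smallest change of each role and for Tpm3, whose probes differ in sign. At most 4 called genes with a 2-fold change are named per list by rule, and Ptk2 was added to its list after its values were seen. Deviations from the group means correlated at -0.06 to 0.16 between samples with the same replicate number and at -0.13 to 0.09 between other numbers. Such correlations cannot exclude a pairing, and the numbers were taken as names. The results of 1 pathway list and 1 marker list are not reported here. The fit was also run on simulated data. Among changed probes that passed the filter, it recovered 95.6% of 68 changes of 1 and 97.6% of 82 changes of 2 on the log2 scale. Far fewer probes changed there than were called in the data, so that run cannot judge the quantile normalization used here.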

Additional observations from a re-analysis of the deposited data

Results flagged for a closer look

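In a group of 4 arrays, 1 array was counted as standing apart where its gap to the nearest other, divided by the range of the group, exceeded Dixon's critical value for 4 values. Of 56 such groups (28 member genes in astrocytes and in NS5 cells) 8 did so, where chance gives about 5% for normally distributed values. The share over all genes tested was not counted, so that nothing particular to the members is read from the 8. Among astrocyte arrays, replicate 1 stood apart for Ezr, at 12668 against 6647 to 7630 on the others, and for Myh9, at 6099 against 4899 to 4971. Astrocyte replicate 3 did so for Pfn2, at 8206 against 6924 to 7101, and astrocyte replicate 4 for Srf, at 1671 against 2411 to 2543. Among NS5 arrays, replicate 2 stood apart for Acta2, at -37.9 against 2.29 to 5.61, all of them below background, and for Srf, at 2124 against 2404 to 2445. NS5 replicate 3 did so for Pdlim7, at 258 against 362 to 382, and NS5 replicate 4 for Fhl1, at 838 against 993 to 1021. The calls of Ezr, Pfn2, Acta2, Pdlim7 and Fhl1 were kept when any 1 array was left out, and Myh9 and Srf were not called in any such fit.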

How the results depend on the processing

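Over 472 refits of the 28 member genes, 449 kept their side of the threshold, and the called genes among them kept their direction. The refits with 1 probe per gene, no filter, a stricter filter or the replicate block use the same normalized values. In them the log2 fold change equals the main one by construction, so that only the call could change. A call was lost in 19 (Tpm1 in 9 and Tpm4 in 10) and gained in 3 (Lasp1). The remaining 1 reversed, Actb at -0.10 with median centring, and the cause of that reversal was not tested. The lost calls of Tpm4 were not limited to single arrays and include that by the authors' value table (-0.38, adjusted p = 0.0775, limma). Srf ran from -0.17 to 0.09 and Pxn from -0.07 to 0.02, so that their signs changed, and neither was called in any refit. Besides the single arrays named in the report, Tpm1 lost its call with median centring (0.25, adjusted p = 0.190), by the authors' table of values (0.38, 0.0622), with the floor at 0 and an offset of 16 (0.37, 0.0527) and with no filter on dim probes (0.34, 0.0504). The 30 called member probes ran from 26 to 29, the higher ones from 18 to 19, the lower ones from 7 to 11 and the median from 0.33 to 0.47 when 1 array was left out. The lower count was 7, against 11, without NS5 replicate 2 and without NS5 replicate 3. It was 6 with 1 probe per gene and 7 with the mean of probes per gene, both of which hold fewer features by construction. The median of the 28, 0.40, came to 0.63 by the authors' value table and to 0.58 by the floor at 0 and an offset of 16, whose smaller offset widens the changes of dim genes by construction. With the replicate block 29 member probes were called, 20 higher and 9 lower, and Tpm4 was not (-0.37, adjusted p = 0.0676); no other member gene changed its call. The same-numbered arrays correlated at -0.06, 0.04, 0.16 and 0.08 in their deviations, and the numbers are taken as names. Over 117 recomputations of the 9 paralogue differences other than Acta2 against Actb, the 8 called pairs kept their direction, and Tpm1 against Tpm4 lost its call in 4, those named in the report. Tpm4 against Tpm3, which was not called, turned to -0.05 without NS5 replicate 1. Pairing by number leaves too few arrangements for the exact test to pass, so it gives sizes alone. These sizes equal those of the main setting by construction, so that no direction could change there. Signal near background limits Acta2, Ccn1 and Tmsb10 to bounds. Tmsb10 has 13 refits, against 17 for each other member gene, because it did not pass the filter in the other settings.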
